A study of Drosophila melanogaster with 11 samples.

Results

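The piRNA pathway genes examined here were piwi, aub, AGO3, zuc, armi, mael, vas, spn-E, krimp and qin, 10 genes of Drosophila melanogaster. They were followed through every probeset, a set of short probes read as 1 value, that the annotation of the Affymetrix Drosophila 2.0 array assigns to 1 of these genes and to no other gene. That rule gave 11 of the 18952 probesets, 1 for each gene except qin, which had 2. By the RefSeq annotation, piwi, aub, zuc and vas lie on chromosome arm 2L, krimp on 2R, armi, mael and AGO3 on 3L, and spn-E and qin on 3R. The genes piwi and aub lie close together, with 2 annotated genes between them.

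The study asked whether the heterochromatin protein HP1 acts differently in male and female larvae, and measured RNA of whole 3rd-instar larvae on 11 arrays. Larvae labelled y w; + /+; +/P-act carried both transgenes, P and act-Gal4, and are called P/act-Gal4. The driver controls, y w; + /+; +/act-Gal4, carried act-Gal4 alone, and the P controls, y w; + /+; +/P, carried P alone. All 3 genotypes shared the y w background. P was read as the HP1-21 line that the design text names, which was taken to silence HP1 by RNA interference in cells that make Gal4. The actin promoter of act-Gal4 is active in most tissues, so the labelled genotype is not specific to the gonad or the germline. Each genotype had 2 male and 2 female arrays, except P/act-Gal4 females with 1. The design text speaks of 2 independent populations but does not tie them to arrays, so the spread between replicates may be technical in part. No age beyond the larval stage was given.

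piRNAs are small RNAs that guide Argonaute proteins of the Piwi family to transposon transcripts, mainly in the cells of ovary and testis. Long precursor RNAs are cut at the surface of mitochondria, and the pieces are amplified in nuage, a granule around germ cell nuclei, by cuts that Aub and AGO3 make in turn. In the nucleus, Piwi guides silencing of transposon chromatin, which ends in a histone methylation mark that HP1 binds. In a larva the gonads are a very small part of the body, so a whole-larva extract holds little of their RNA. In such bulk samples, fewer cells of a type and less RNA per cell cannot be told apart.

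The transcript of HP1 was read by 1 probeset, and its position relative to the construct was not given in the sources used here. Its log2 values were 7.52 and 7.84 in P/act-Gal4 males, against 8.03 to 8.39 on the 4 male control arrays. The single P/act-Gal4 female array read 8.02, within the 7.95 to 8.06 of the 4 female control arrays. The HP1 transcript was therefore below its controls in the males with both transgenes and level with them in the female array. Array medians ran from 15.3 to 15.6 on the linear intensity scale in males and from 13.6 to 14.1 in females. The 3′ probeset of eIF-4a minus its 5′ probeset, a measure of how far RNA was copied from its 3′ end, also differed between the groups. It was 3.66 to 3.72 (log2) in P/act-Gal4 males against 4.30 to 4.98 in male controls, and 3.47 on the P/act-Gal4 female array against 3.89 to 4.28 in female controls. The same measure for GAPDH did not set P/act-Gal4 males apart, at 3.26 to 3.36 against 3.23 to 3.40 in driver control males and 4.54 to 4.64 in P control males. On the P/act-Gal4 female array the GAPDH measure was 2.90, below the 3.02 to 3.66 of female controls. For actin the measure was 2.89 to 3.00 in P/act-Gal4 males against 4.02 to 4.14 in male controls, while the P/act-Gal4 female array at 2.95 lay within the P control females. The part of these differences in the results was not tested. Larval tissue was evident from 10 marker genes such as Lsp2 and Sgs3, whose summed intensity was 40039 to 65134 on every array.

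Most of the pathway genes read close to the floor of the array. As a guide to that floor, 9 probesets of Y-linked genes had mean log2 values of 2.18 to 3.08 on the 5 female arrays, whose larvae lack a Y chromosome. Their median was 2.39, and all but that of Pp1-Y2 were at most 2.77. A stricter guide was given by 9 chorion and vitelline membrane genes, whose known expression is in the adult ovary; the highest of these averaged 3.94 in males and 4.27 in females. Probes differ in affinity, so these are guides to background and not a ranking of transcripts. The armi probeset was above both guides on all 11 arrays. The spn-E probeset was above the Y-linked guide on all 11 arrays but above every eggshell gene on 1 array only. The aub probeset exceeded the Y-linked guide on 10 arrays and the eggshell genes on 3. The mael probeset exceeded the Y-linked guide on 9 arrays and the eggshell genes on 5, which were all 4 male control arrays and 1 P/act-Gal4 male array. Probesets of AGO3, piwi, vas and zuc and 1 of the qin probesets stayed below the highest Y-linked probeset on all 11 arrays. The krimp probeset exceeded it on 1 array and the other qin probeset on 3. For genes this dim, log2 changes may understate changes in RNA, and how far they belong to background signal was not tested.

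**Figure D1:**
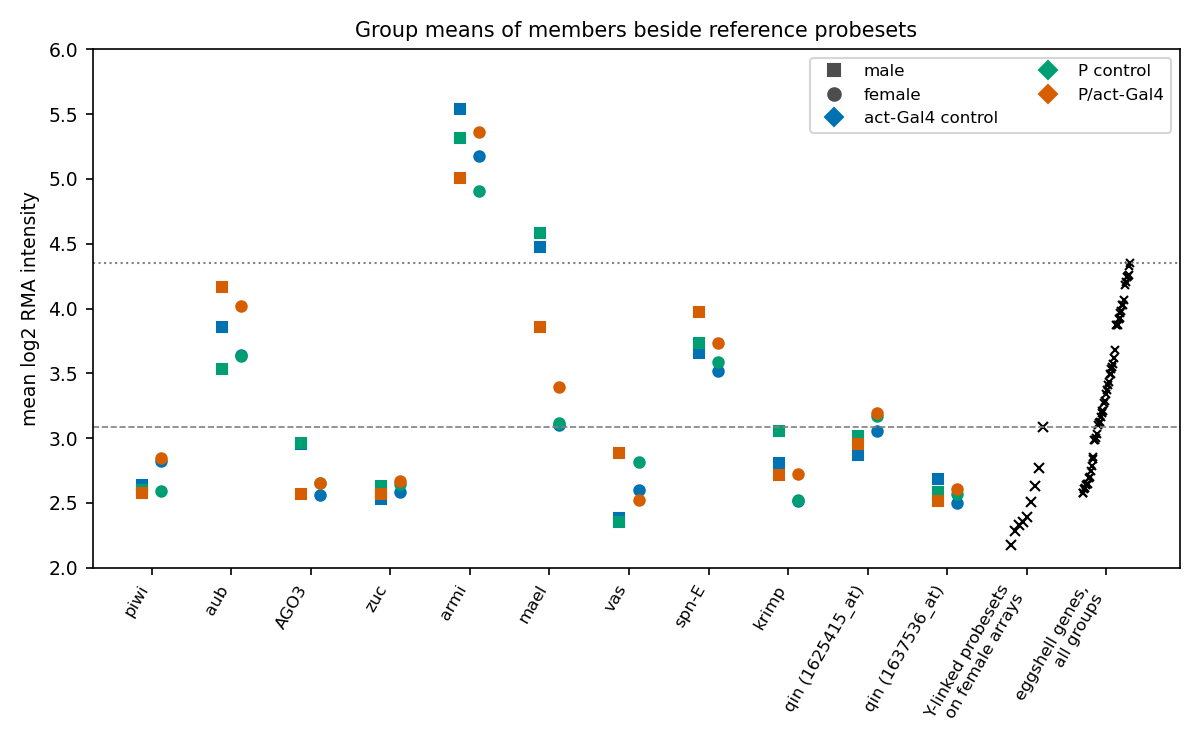
Mean log2 RMA intensity (y axis) of each member probeset (x axis) in the 6 groups, squares for males and circles for females, beside Y-linked probesets on female arrays and the group means of 9 eggshell genes (crosses). The dashed line marks the highest Y-linked probeset at 3.08 and the dotted line the highest eggshell group mean; armi lies above both in every group, and mael above both only in the 2 male control groups.

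Among the Argonautes, piwi encodes the nuclear member of the family, found in germ cells and in the somatic cells of the gonad. Its log2 intensity ranged from 2.50 to 2.89 over the 11 arrays, with a median of 2.63, and the group means spanned 0.28. The piwi values of the male groups overlapped. Aubergine, the product of aub, cuts transposon transcripts in nuage with the help of antisense piRNAs. For aub the driver control males read 4.05 and 3.66, the P control males 3.50 and 3.57 and the P/act-Gal4 males 4.13 and 4.20. In females aub read 3.07 and 4.21 in driver controls, 3.47 and 3.79 in P controls and 4.02 with both transgenes. Both P/act-Gal4 male arrays were above all 4 male controls, but the 2 driver control females alone covered the whole log2 range of 1.15 over the 11 arrays.

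AGO3 is the partner of Aub that carries sense piRNAs. The AGO3 values were 2.89 and 3.03 in driver control males, 3.01 and 2.91 in P control males and 2.58 and 2.55 in P/act-Gal4 males. In females AGO3 read 2.47 and 2.65 in driver controls, 2.67 and 2.64 in P controls and 2.65 with both transgenes. The 4 male control arrays were the highest of the 11, and the P/act-Gal4 males lay within the range of the females.

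Of the genes for precursor processing, zuc encodes the endonuclease of the mitochondrial surface that cuts precursors into piRNAs. Its log2 intensity ranged from 2.39 to 2.87 with a median of 2.62, and the 2 P control males alone covered that whole range. Armitage, an RNA helicase, brings precursors to that site. Its gene armi read 5.55 and 5.52 in driver control males, 5.34 and 5.29 in P control males and 4.91 and 5.11 in P/act-Gal4 males. In females armi read 5.13 and 5.23 in driver controls, 5.10 and 4.72 in P controls and 5.36 with both transgenes. The order of arrays thus ran opposite ways in the sexes, with the P/act-Gal4 males below all male controls and the P/act-Gal4 female above all female controls.

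Maelstrom, a protein with an HMG box, acts in transposon silencing in the nucleus and is also found in nuage. The mael values were 4.44 and 4.51 in driver control males, 4.74 and 4.43 in P control males and 3.75 and 3.97 in P/act-Gal4 males. In females mael read 2.93 and 3.28 in driver controls, 3.21 and 3.03 in P controls and 3.39 with both transgenes. No male array overlapped a female one, and the P/act-Gal4 males lay between the male controls and the females. Its group means spanned 1.48 on the log2 scale, against at most 0.63 for any other member. The suffix of the mael probeset marks probes that may match more than 1 transcript.

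In nuage, the helicase Vasa is a core component and is widely used as a germ cell marker. The vas values were 2.40 and 2.36 in driver control males, 2.50 and 2.20 in P control males and 2.90 and 2.87 in P/act-Gal4 males. In females vas read 2.58 and 2.62 in driver controls, 2.97 and 2.66 in P controls and 2.52 with both transgenes. All 11 values were at background level by the Y-linked guide, and the P/act-Gal4 males stood above all male controls. A further probeset, assigned to both wwk and vas and left out by the rule, ranged from 2.52 to 2.74.

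Spindle-E, a helicase with a Tudor domain, is needed for the same amplification cycle. The spn-E values were 3.62 and 3.69 in driver control males, 3.67 and 3.80 in P control males and 3.95 and 3.99 in P/act-Gal4 males. In females spn-E read 3.46 and 3.58 in driver controls, 3.71 and 3.47 in P controls and 3.73 with both transgenes. The P/act-Gal4 arrays of each sex were the highest of that sex, in females by less than the spread of the P controls.

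Krimper, a Tudor protein, brings Aub and AGO3 together in nuage. The krimp values were 2.88 and 2.74 in driver control males, 3.10 and 3.01 in P control males and 2.62 and 2.81 in P/act-Gal4 males. In females krimp read 2.62 and 2.41 in driver controls, 2.57 and 2.48 in P controls and 2.72 with both transgenes. The male control arrays were above the female controls, and the P/act-Gal4 males overlapped the driver control males. Qin, another Tudor protein, favours the pairing of Aub with AGO3 over Aub with itself. Its brighter probeset ranged from 2.87 to 3.20 and its dimmer one from 2.46 to 2.76 over all arrays.

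**Figure D2:**
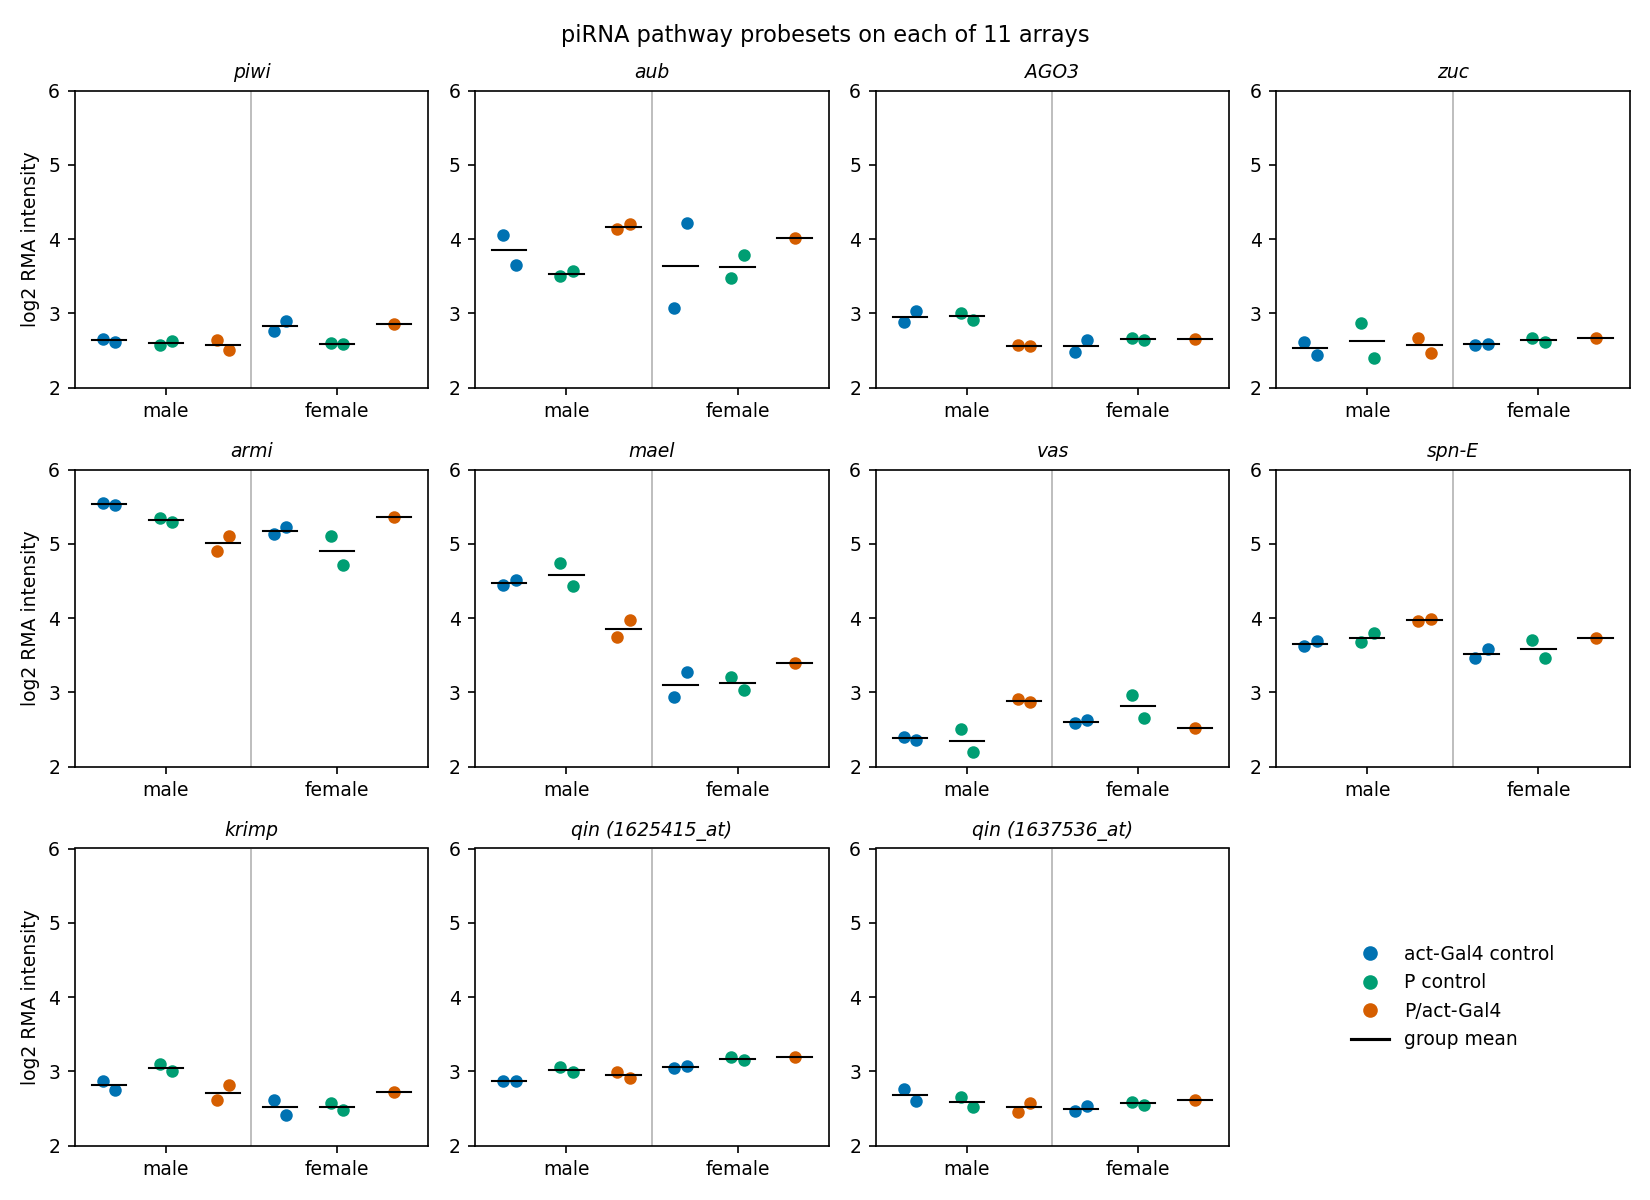
Log2 RMA intensity (y axis) of the 11 member probesets on each of the 11 arrays, by sex and genotype (x axis), with 1 point per array and a line at each group mean. The mael panel shows male controls at 4.43 to 4.74, P/act-Gal4 males at 3.75 and 3.97 and all females at 2.93 to 3.39.

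Comparison of male with female controls showed which of these genes differed by sex without the pair of transgenes. The mael, krimp, armi and AGO3 probesets were higher in males, and those of vas and 1 of the 2 qin probesets were higher in females, each over 4 arrays a side. These 6 of 11 probesets passed an adjusted p of 0.05 in limma, a linear model fitted to all probesets at once. Across the array 60.7% of probesets passed, 16.3% higher in males and 44.4% lower. The median over all probesets was -0.17 on the log2 scale, and -0.33 after each array was shifted to a common median. With that shift the share of called probesets that were higher in males fell from 26.8% to 15.3%. The median of the 11 member probesets was 0.10.

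The mael probeset was higher in males by 1.42 ± 0.0999 (log2, SE), or 2.67-fold, with an adjusted p of 2.21e-07. Since its female values lay within the range of the eggshell genes, that fold rests on a female level near the floor. The krimp probeset was higher in males by 0.41 ± 0.0767 (adjusted p = 0.000835), and AGO3 by 0.35 ± 0.0684 (adjusted p = 0.00111). The mael, krimp and AGO3 probesets passed in all 16 alternative settings, but with values down to 1.26, 0.25 and 0.19. In these genes no male control overlapped a female control, as was also the case for armi. The armi probeset was higher in males by 0.38 ± 0.088 (adjusted p = 0.00316), which no longer passed after a further quantile normalization (0.20, adjusted p = 0.0905). The vas probeset was lower in males by a log2 difference of -0.34 ± 0.0872 (adjusted p = 0.00565), again without overlap of the arrays. The brighter qin probeset differed by -0.17 ± 0.06 (adjusted p = 0.0289), no more than the median of all probesets, and passed in 7 of 16 alternative settings. In all, 4 member probesets were higher and 1 lower without overlap, against 13.4% and 25.2% of all probesets. For piwi the difference was -0.091 with a 95% interval of -0.23 to 0.053, but -0.25 with an adjusted p of 0.0049 after the shift to a common median. For aub it was 0.061 with an interval of -0.37 to 0.49.

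In males with both transgenes the genes split. The mael, armi and AGO3 probesets fell against the mean of both control genotypes, and the vas and spn-E probesets rose. These 5 of 11 probesets, 3 lower and 2 higher, compare with 29.2% of all probesets that passed, 12.9% lower and 16.3% higher. The median change was -0.045 over the members and -0.026 over all probesets. In 3 members the P/act-Gal4 males were above all male controls and in 3 below them, against 19.5% and 20.1% of all probesets.

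The fall of mael was -0.67 ± 0.122 (log2, SE, 2 arrays against 4), or 1.59-fold, with an adjusted p of 0.00148. AGO3 changed by -0.39 ± 0.0838 (adjusted p = 0.00411), which brought it to the level of the female arrays. The vas probeset rose by 0.52 ± 0.107 (adjusted p = 0.00312), above 4 of the 5 female arrays. The calls for mael, AGO3 and vas held in all 19 alternative settings in which each was measured. Even so, AGO3 and vas stayed at background level by the Y-linked guide throughout. The armi probeset changed by -0.42 ± 0.108 (adjusted p = 0.0117). Without P/act-Gal4 male replicate 1 the armi change was -0.32 (adjusted p = 0.149), and against the P controls alone it was -0.31 (adjusted p = 0.0959). The spn-E probeset rose by 0.28 ± 0.0903 (adjusted p = 0.0364). That call was lost in 9 of 19 alternatives, with an adjusted p of up to 0.2 when P/act-Gal4 male replicate 2 was left out.

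The remaining 6 probesets did not pass in males. The aub value was 0.47 ± 0.24 (adjusted p = 0.18). It passed with the male arrays fitted alone (adjusted p = 0.0041) or without either driver control female array (adjusted p = 0.0137), whose 2 values of aub are far apart. For krimp the value was -0.22 ± 0.0939 (adjusted p = 0.114), and against the P controls alone it was -0.34 (adjusted p = 0.0403). The piwi probeset differed by -0.045 with a 95% interval of -0.22 to 0.13, an interval of a probeset at background level that sets no bound on piwi RNA. The interval of zuc was wider, -0.28 to 0.26, and the 2 qin probesets read 0.01 and -0.12.

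In females the single P/act-Gal4 array was set against 4 control arrays, on the assumption that it varies like the others. By limma 0 of 11 member probesets passed, against 15.9% of all probesets, 9.2% higher and 6.69% lower, and 1 had an unadjusted p under 0.05. That was armi, at 0.32 ± 0.139 (unadjusted p = 0.0401, adjusted p = 0.151). The mael value was 0.28 ± 0.158 (adjusted p = 0.274) and the aub value 0.38 ± 0.31 (adjusted p = 0.462). The array was above all female controls in 7 member probesets and below them in 1, against 23.3% and 27.7% of all probesets. The median was 0.14 over the members and -0.036 over all probesets. Leaving out driver control female replicate 2 made the aub value 0.67 (adjusted p = 0.0216), and leaving out P control female replicate 1 made the armi value 0.42 (adjusted p = 0.027).

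Whether the effect of the 2 transgenes differed between the sexes was tested as an interaction, male effect minus female effect. The mael and armi probesets changed more negatively in males than in females, and vas more positively. These 3 of 11 probesets compare with 11.9% of all probesets, 5.96% higher and 5.93% lower. The difference was -0.95 ± 0.2 for mael (adjusted p = 0.00967), -0.74 ± 0.176 for armi (adjusted p = 0.018) and 0.71 ± 0.174 for vas (adjusted p = 0.0219). All 3 rest on 1 female array. Without P/act-Gal4 male replicate 1 none of them passed, with adjusted p of 0.0537 for mael, 0.087 for armi and 0.0817 for vas. With both control genotypes pooled into 1 group none passed either, and vas was also lost against the driver controls alone (adjusted p = 0.0911) and without P/act-Gal4 male replicate 2 (adjusted p = 0.0644). For AGO3 the difference was -0.44 ± 0.137 (adjusted p = 0.0615). It passed in 4 of 17 alternatives, with an adjusted p of 0.0367 after the shift to a common median, 0.0471 after quantile normalization, 0.0463 with 1 probeset per gene and 0.0459 without driver control female replicate 2. The krimp difference was -0.42 ± 0.153 (adjusted p = 0.108). The interval of the difference ran from -0.47 to 0.10 for piwi and from -0.77 to 0.95 for aub.

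**Figure D3:**
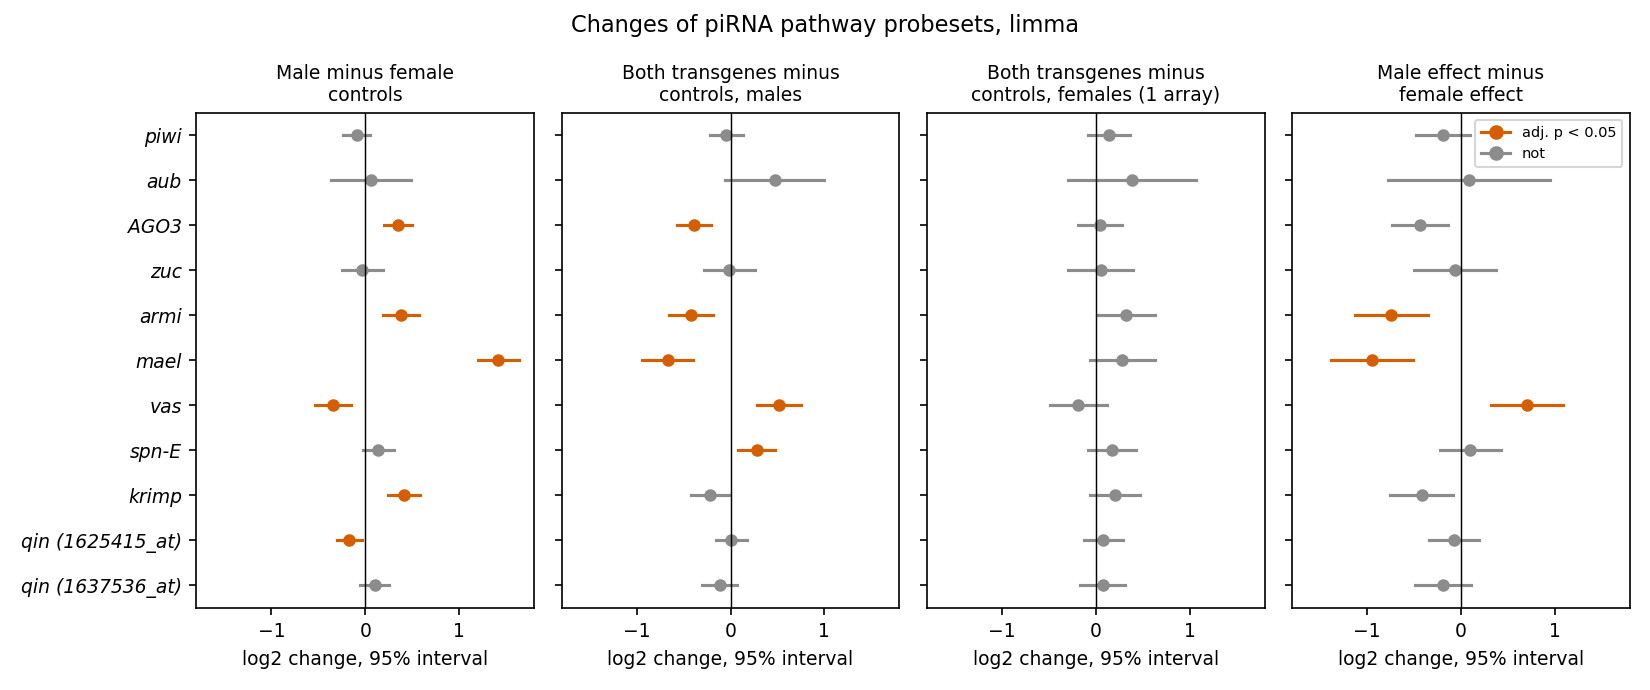
Log2 change (x axis) of each member probeset (y axis) with its 95% interval from limma, for male minus female controls, both transgenes minus controls in each sex, and male effect minus female effect. Orange marks an adjusted p under 0.05, reached by 6, 5, 0 and 3 of the 11 probesets.

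The 2 control genotypes were also set against each other, since they differ by transgene and possibly by stock. In males 0 of 11 member probesets passed in limma, against 18.4% of all probesets, 10% higher and 8.36% lower, and 1 had an unadjusted p under 0.05. That was krimp, at -0.24 ± 0.108 for driver minus P control (unadjusted p = 0.0472, adjusted p = 0.164). The driver controls were above the P controls without overlap in 2 member probesets and below in 2, against 27.8% and 30.3% of all probesets. In females 0 of 11 passed, against 16.6% of all probesets, 7.82% higher and 8.75% lower, and 1 had an unadjusted p under 0.05. That was piwi, at 0.23 ± 0.0927 (unadjusted p = 0.0277, adjusted p = 0.118). The female arrays did not overlap in 2 member probesets that were higher in driver controls and in 4 that were lower, against 24.6% and 26.5% of all probesets. For armi the driver minus P value was 0.27 ± 0.124 in females (adjusted p = 0.179), and it passed at 0.46 without P control female replicate 1 (adjusted p = 0.0236). These arrays are the same controls that the comparisons above share.

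Only mael varied enough between groups, by 1 or more on the log2 scale, to look for genes with a like pattern. By the root mean square difference of centred log2 values over the 11 arrays, the closest single-gene probesets were those of CG7730 at 0.113, CG3955 at 0.116 and CG43100 at 0.139. In P/act-Gal4 males these read -0.57, -0.67 and -0.69 against controls, and in male against female controls 1.48, 1.34 and 1.48. They were picked for this likeness, so these values are a description.

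Beyond these 10 genes, 44 further genes of the pathway were listed, of which 40 had a single-gene probeset. In P/act-Gal4 males 8 of the 40 were higher and 4 lower, 20% and 10%, against 19.7% and 16.8% of 11981 genes. The median change was -0.042, against -0.012 over all genes. The shares of the list were thus near those of all genes or below them. Of the nuage and Tudor-domain list, 3 of 8 genes rose and 1 fell. Its founding member tud, whose protein binds methylated Piwi proteins, rose by 0.82 ± 0.0722 (adjusted p = 9.3e-06). The tapas probeset rose by 0.59 ± 0.0917 (adjusted p = 0.000513), while a dimmer probeset of tapas read -0.26 (adjusted p = 0.195). The gene squ, which encodes a nuage protein, changed by -0.35 ± 0.115 (adjusted p = 0.0424).

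In the list for primary biogenesis and the mitochondrial membrane, 1 of 11 genes rose and 2 fell. Hen1, the methyltransferase that modifies the 3′ end of mature piRNAs, changed by -0.52 ± 0.103 (adjusted p = 0.00265). SoYb, a Tudor-domain helicase, rose by 0.48 ± 0.0918 (adjusted p = 0.00206). Among genes for transcription and export of precursors, 3 of 12 rose and 1 fell, which was thoc5, a subunit of the THO complex, at -0.57 ± 0.105 (adjusted p = 0.00147). Among nuclear silencing genes 1 of 9 rose, wde, a cofactor of histone methylation, at 0.29 ± 0.0822 (adjusted p = 0.0201).

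On the female array 5 of the 40 genes were higher and 1 lower, against 11.3% and 8.34% of all genes. Gasz, a protein of the mitochondrial surface, rose by 0.64 ± 0.13 (adjusted p = 0.0057), and papi, a Tudor protein of that surface, changed by -0.51 ± 0.111 (adjusted p = 0.00835). The tapas probeset rose by 0.51 ± 0.118 (adjusted p = 0.0124) and Trf2, a TBP-related factor, by 0.55 ± 0.163 (adjusted p = 0.04). The effect differed between sexes for 3 of the 40 genes, 1 higher and 2 lower, against 7.48% and 7.75% of all genes. These were Hen1 at -0.90 ± 0.169 (adjusted p = 0.00528), tud at 0.50 ± 0.118 (adjusted p = 0.0177) and vret at -0.47 ± 0.135 (adjusted p = 0.0433). Between male and female controls 10 were higher and 8 lower, against 22.4% and 40.9% of all genes. The largest were squ at 1.26 ± 0.0942 (adjusted p = 3.71e-07), Hen1 at 0.99 ± 0.0843 (adjusted p = 1.32e-06), Trf2 at 0.86 ± 0.103 (adjusted p = 2.81e-05) and bel, a helicase gene, at 0.77 ± 0.0845 (adjusted p = 1.26e-05). Between the control genotypes 2 were higher and 5 lower in driver males, against 13.3% and 9.85% of all genes, with Nxf3, an export factor, at -0.80 ± 0.131 (adjusted p = 0.00129). In driver females 3 were higher and 2 lower, against 9.95% and 10% of all genes, with Trf2 at -0.60 ± 0.146 (adjusted p = 0.0157).

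Markers of germ cells and of spermatocytes, the testis cells in which many male genes are first transcribed, were counted in the same comparisons. In P/act-Gal4 males 10 of 24 primary spermatocyte genes fell, 3 rose and 11 did not pass, with a median of -0.13. Over all genes 16.8% were lower and 19.7% higher, with a median of -0.012. The fall was led by vis at -1.45 ± 0.142, sa at -0.81 ± 0.154, tomb at -0.76 ± 0.199 and can at -0.73 ± 0.133. Of 20 germline genes, with bol on both lists, 6 fell, 3 rose and 11 did not pass. The falling genes included fest at -1.24 ± 0.0867, exu at -1.09 ± 0.0999 and CycB3 at -0.95 ± 0.0901. Among the rising genes was Rbp9 at 0.76, while a dimmer probeset of Rbp9 read -0.22. The germline list median was -0.0185, near that of all genes. The summed intensity of the germline list was 1851 to 1948 in driver control males, 2444 to 2491 in P control males and 1477 to 1618 in P/act-Gal4 males. That of the spermatocyte list was 6404 to 6443, 8869 to 9108 and 8142 to 8242 in the same order, so the sum did not fall below both controls. The median log2 value of the spermatocyte list did, at 4.27 to 4.33 in P/act-Gal4 males. It was 4.74 to 4.87 in driver control males and 4.63 to 4.83 in P control males. Of 12 somatic gonad genes 3 rose and 1 fell, with zfh1 at 0.90 ± 0.0884, a gene also transcribed outside the gonad. Of 12 adult ovary genes 0 rose and 1 fell. Of the germ cell markers, nanos at group means of 2.23 to 2.45 and otu at 2.17 to 2.37 were at the floor. Others on the list were not as low. Group means of bgcn were 4.83 to 5.56 in males and 3.20 to 3.60 in females, and those of bam were 3.16 to 3.62. The part of these cell markers in the changes of mael, AGO3, armi and vas was not tested.

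Between male and female controls 19 of 24 spermatocyte genes were higher in males and 1 lower, against 22.4% and 40.9% of all genes. Their median was 1.42, against -0.14 over all genes. The lower one was Taf12L at -0.38 (adjusted p = 0.000369 in limma), but another Taf12L probeset of like brightness read 1.95 (adjusted p = 1.13e-08). Against controls these 2 probesets read -0.081 and -0.76 in P/act-Gal4 males, and -0.33 and -0.034 on the P/act-Gal4 female array. The spermatocyte sum, which is weighted to the brightest genes, was 310 to 343 on the female control arrays and 456 on the P/act-Gal4 female array. The median log2 value of the list was 3.31 on that array, within the 3.14 to 3.53 of the female controls. Its median change there was 0.035. On that array 7 spermatocyte genes were higher and 1 lower, led by Mst87F at 1.54 ± 0.134 and Mst84Dc at 1.13 ± 0.148, and 6 of 20 germline genes were higher and 0 lower. Over all genes 11.3% were higher and 8.34% lower on that array. The germline sum was 930 there, against 733 to 798 on the female controls. It too is weighted to bright genes such as ovo, at 8.01 there against means of 7.47 and 7.59 in female controls. On the same array nanos read 2.28 and otu 2.29. The median log2 value of the germline list was 3.83 there, against 3.31 to 3.63 on the female controls. Which cells this signal came from was not tested. Summed transcripts of both lists were thus above the control level on the 1 female array with both transgenes, on which mael and armi also read above all female controls. The 10 larval tissue markers had a median change of 0.43 there, against -0.0061 over all genes. Their sum was 65119, against 59326 to 59549 in driver control females and 40039 to 40320 in P control females. In the difference between sexes their median was -0.58, against -0.52 for the spermatocyte genes. The part of these tissue markers in the interaction was not tested.

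**Figure D4:**
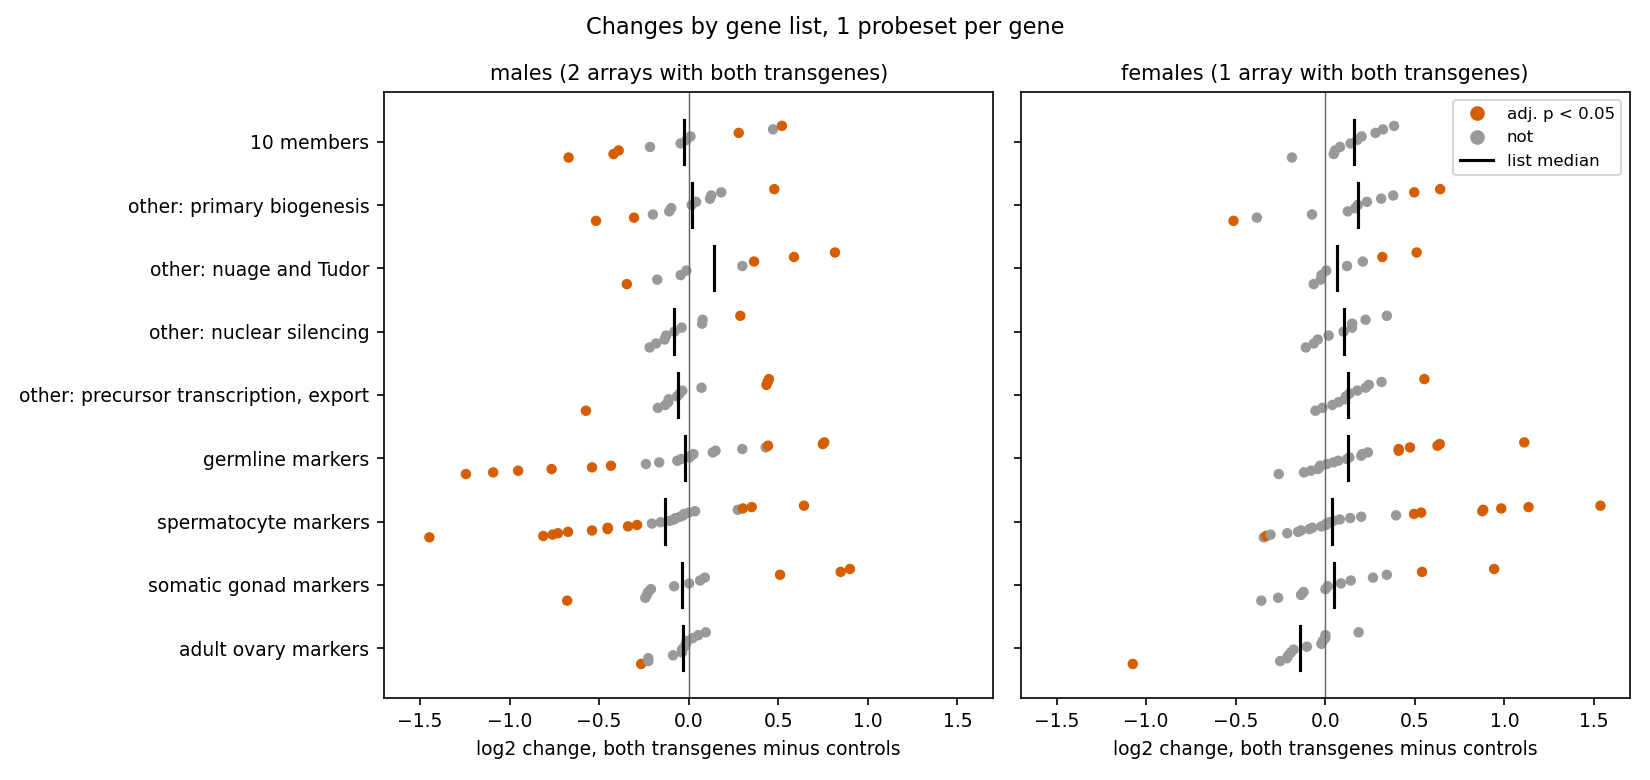
Log2 change, both transgenes minus controls (x axis), of each gene in the member list and in lists of other pathway genes and tissue markers (y axis), for males and for the 1 female array, with 1 probeset per gene and a bar at each list median. Orange marks an adjusted p under 0.05; in males the spermatocyte list holds 10 lower and 3 higher genes, and in females 1 lower and 7 higher.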

How the data were processed

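The authors deposited 1 table of RMA values for 11 arrays, with the method per the submitters' processing notes; the deposited values are intensity on a linear scale, already background-corrected and normalized, and were used as log2 without a pseudocount. Groups came from the array titles, which match the sex and genotype characteristics. All 11 descriptions call the larvae male, also for the 5 female arrays, and the strain label names both transgenes on 10 arrays, controls included. These conflicting labels bear on the sex and genotype that every comparison rests on, and were not used. The groups titled male and female were far apart in 2 germline list genes. Group means of exu were 8.49 to 9.90 in male and 3.03 to 3.77 in female groups. Those of fest were 6.71 to 8.29 and 2.25 to 2.40. Probesets were named through the platform annotation with symbols updated through RefSeq. The vas probeset was matched by symbol. The array holds 183 control probesets, which were left out, leaving 18769.

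All arrays entered 1 limma fit (limma 3.58.1, R 4.3.3) on the 6 groups, with 5 residual and 6.29 prior degrees of freedom and Benjamini-Hochberg adjustment over all probesets. Scripts were tested on simulated data. For gene lists, the probeset with the highest mean stood for a gene. Of other pathway genes and markers, up to 4 with the largest change among those passing were to be named per list and comparison; wde, squ and SoYb come from the sublists, and defining markers were named for their level. The members, lists and tests were chosen with earlier results of these data known. The number of arrays limits the precision.

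Alternatives were limma's trend and robust options, quantile normalization, a shift to a common median, bright probesets only, 1 probeset per gene, arrays of 1 sex, each control alone, both controls pooled, and each array left out. No sequence is shown, since none was in the sources used here.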

Additional observations from a re-analysis of the deposited data

Results flagged for a closer look

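The effect of both transgenes differed between the sexes in 3 of the 11 probesets, by a test of the difference itself in limma. The male minus female effect was -0.95 on the log2 scale for mael, where the 2 P/act-Gal4 males were below all male controls and the 1 P/act-Gal4 female above all female controls. It was -0.74 for armi, with the same order of arrays. It was 0.71 for vas, where the males were above and the female below their controls at background level. No group held the 4 arrays that a check for outlying arrays needs.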

How the results depend on the processing

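No paired analysis was possible because the labels do not tie arrays to the independent populations. The replicate numbers used here follow the order of the array titles within each group. Of 14 called member changes, 7 passed in every alternative that measured them and 0 turned in sign; of 52 uncalled ones, 10 passed in at least 1 alternative. Member probesets called in males were 5, but 1 with bright probesets only, which left armi alone among the members, 3 with controls pooled, and 3 to 6 with an array left out. In females the 0 became 0 to 1 with an array left out. For the difference between sexes the 3 became 1 with bright probesets, 0 with controls pooled and 0 to 4 with an array left out. The 6 of male against female controls became 1 with bright probesets. The 0 between female controls became 0 to 1 with an array left out.

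Values that changed sign were all uncalled in the main result. Under quantile normalization these were zuc in males (0.027), aub (-0.049) and spn-E (-0.025) in the difference between sexes, aub (-0.026), piwi (0.031) and zuc (0.081) between sexes in controls, AGO3 between male controls (0.032), and krimp (0.0072) and mael (0.0034) between female controls. With the common median, aub (-0.097), the dimmer qin probeset (-0.059) and spn-E (-0.017) turned between sexes in controls and krimp (0.0001) between female controls. Against the P control alone the brighter qin probeset in males was -0.066. Against the driver control alone zuc in males was 0.038 and aub in the difference -0.068. With an array left out, values in males ran from -0.11 to 0.024 for piwi and -0.13 to 0.11 for zuc. Those of the brighter qin probeset ran from -0.028 to 0.048. In the difference, aub ran from -0.20 to 0.37 and zuc from -0.19 to 0.052. Between sexes in controls, aub ran from -0.23 to 0.35 and zuc from -0.15 to 0.086. Between male controls, AGO3 ran from -0.074 to 0.066, mael from -0.26 to 0.045, vas from -0.12 to 0.18 and zuc from -0.34 to 0.14. Between female controls, aub ran from -0.56 to 0.58, krimp from -0.11 to 0.091, mael from -0.19 to 0.16 and spn-E from -0.19 to 0.052. The cause of these shifts was not tested. Signal near the array's floor limits all members but armi and, in male controls, mael. In P/act-Gal4 males mael exceeded the eggshell genes on 1 of 2 arrays.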
